A study of Homo sapiens with 12 samples.

Results

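The genes described here are 10 transcription factors that direct granulocyte and monocyte fate, namely SPI1, IRF8, RUNX1, GFI1, CEBPA, CEBPB, CEBPD, CEBPE, KLF4 and EGR2. They were chosen by name, each matched 1 of the 58735 Ensembl gene identifiers in the deposited count table, and all 10 were among the 15060 genes tested. OCI-AML2 cells, an acute myeloid leukemia line of human origin with a rearranged KMT2A gene, had been kept for 6 days in 1 µM SGC0946, which inhibits the histone methyltransferase DOT1L, or in the solvent DMSO. They had first been infected with a lentivirus that carried sgUTX_4 or sgUTX_2, guides against KDM6A (the gene of the histone demethylase UTX) whose cells are labelled UTX knockout, or the guide sgLuc, whose cells are labelled wild type and are called control cells here. RNA of every guide and treatment was sequenced in 2 libraries, which gave 4 sgUTX and 2 control libraries per treatment and 12 in all. The labels do not say whether the infected cells were clones or pools, nor whether both libraries of a guide and treatment had a culture each, and the p-values therefore reflect a spread between libraries that may be no more than technical.

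Total counts per library lay between 15480493 and 23262141, and levels are CPM (read counts relative to library size) scaled by TMM, edgeR's correction for library composition. KDM6A itself stood at 43.2 to 49.4 CPM in the 4 sgUTX_4 libraries and at 14.4 to 15.9 CPM in the 4 sgUTX_2 libraries, against 27.9 to 35.1 CPM in the 4 control libraries. Its transcript was thus higher than control with sgUTX_4 and lower with sgUTX_2, so every direction below is that of the labelled libraries. Genes of ribosomal proteins took 10.97% to 12.1% of the counts in the 8 sgUTX libraries, against 12.9% and 13.1% in the control libraries with SGC0946 and 17.7% and 18.9% in the control DMSO libraries. With SGC0946, the 6 genes fixed as marks of myeloid identity summed to 4426 to 6421 CPM in sgUTX libraries and to 11351 and 11596 CPM in control libraries; in DMSO they summed to 1196 to 1550 CPM and to 1543 and 1704 CPM. LYZ, the lysozyme gene, made up most of the SGC0946 sums, with 2890 to 4699 CPM in sgUTX libraries and 9246 and 9453 CPM in control libraries, while MPO, the myeloperoxidase gene, ran the other way, with 430 to 577 CPM in sgUTX libraries and 334 and 386 CPM in control libraries. The 18 markers of other lineages summed to 9.04 to 18.5 CPM in sgUTX libraries and to 28.5 to 36.5 CPM in control libraries, and HBA1, HBB, PF4 and MS4A1 had no count in any of the 12 libraries.

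In blood formation, SPI1 (PU.1) and the C/EBP proteins open and activate myeloid genes, and the balance of a few factors directs progenitors towards granulocytes or monocytes. IRF8, KLF4 and EGR2 are known for roles in monocytes and macrophages, GFI1 and CEBPE for roles in granulocytes, and GFI1 and EGR2 with its NAB partners repress genes of the opposite fate. RUNX1 acts earlier, in the emergence of blood stem cells and in myeloid progenitors, and several of these genes carry mutations in acute myeloid leukemia.

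Per kilobase of annotated exon, the scale on which genes can be compared with each other, SPI1 had the highest and CEBPD the next highest mean level of the 10 in all 4 combinations of genotype and treatment. By guide, CEBPD was level with CEBPA in sgUTX_2 cells with DMSO, at 120.6 ± 10.8 and 120.7 ± 7.06 CPM per kb (mean ± SD, n = 2). SPI1 averaged 177 ± 6.57 CPM per kb in sgUTX cells and 225 ± 2.71 in control cells with SGC0946, and 182 ± 7.95 in sgUTX cells and 188 ± 3.51 in control cells with DMSO (mean ± SD, n = 4 and 2 in each treatment). RUNX1, KLF4 and EGR2 held the 3 lowest places in every combination, although RUNX1 is placed by an exonic length of 15574 bases that joins 17 annotated transcripts. CEBPA is placed by its full exon of 2631 bases, of which antisense genes cover 43.4%. If reads over that part were not kept, its level and its place are too low. IRF8 and CEBPE changed places between the groups. IRF8 was the seventh of the 10 in sgUTX cells in both treatments, the sixth in control cells with SGC0946 and the fourth in control cells with DMSO. CEBPE was the fifth in sgUTX cells in both treatments and in control cells with SGC0946, and the seventh in control cells with DMSO. Its place above GFI1 in sgUTX cells with SGC0946 was within the spread, at 55.1 ± 6.98 against 53.8 ± 3.27 CPM per kb (n = 4), and sgUTX_2 cells alone had it the sixth, at 49.05 ± 0.935 against 51.7 ± 2.20 for GFI1 (n = 2). The mean level of CEBPE was 55.1 ± 6.98 CPM per kb in sgUTX cells and 72.8 ± 2.40 in control cells with SGC0946, and 65.5 ± 2.72 in sgUTX cells and 24.8 ± 2.07 in control cells with DMSO.

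**Figure D1:**
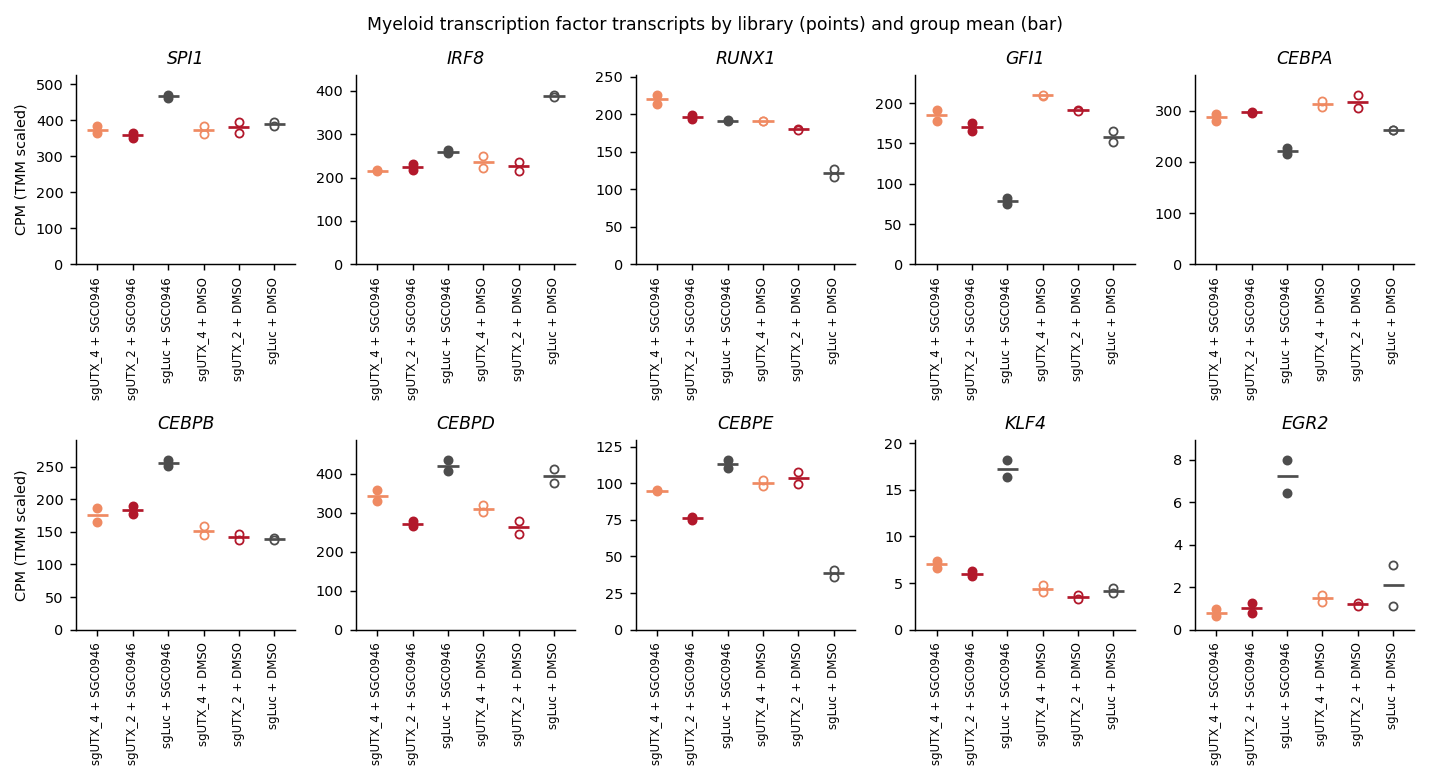
CPM (linear axis from 0) of each of the 10 genes in the 12 libraries: a point is a library, a bar the mean of the 2 libraries of a guide and treatment, filled points are SGC0946 and open points DMSO. Control libraries with SGC0946 stand apart from the 4 sgUTX libraries of that treatment for every gene, above them for 7 genes and below them for RUNX1, GFI1 and CEBPA; of all genes tested, 68.1% stood apart in this way, 34.3% with sgUTX lower and 33.8% with sgUTX higher.

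SGC0946 moved most of these genes in control cells and fewer of them, by less, in sgUTX cells. In control cells 9 of the 10 were called at an edgeR adjusted p under 0.05 over all genes, 6 higher and 3 lower with SGC0946, where 48.9% of all genes tested were called (24.7% higher, 24.2% lower). In sgUTX cells 5 of the 10 were called, 3 higher and 2 lower, against 33.8% of all genes (17.4% higher, 16.4% lower). The difference of the responses (sgUTX minus control), tested as an interaction, was called for 8 of the 10 (34.8% of all genes, 18.3% higher and 16.5% lower). It was negative for SPI1, RUNX1, CEBPB, CEBPE, KLF4 and EGR2. For IRF8 and GFI1, which fell in control cells and changed less in sgUTX cells, it was positive. Both genotypes were also compared within each treatment. With SGC0946, 9 of the 10 differed, 2 higher and 7 lower in sgUTX cells (56.9% of all genes called, 27.7% higher and 29.3% lower), and in DMSO 6 differed, 4 higher and 2 lower (61.0%, with 28.7% higher and 32.3% lower). With library size alone as the scaling, 65.0% of the calls with SGC0946 and 66.7% of those in DMSO were higher in sgUTX cells, against 48.6% and 47.1% with TMM. These comparisons share libraries, so their values are given side by side and not as independent evidence. In bulk libraries such as these, fewer cells of a type and less RNA per cell cannot be told apart.

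**Figure D2:**
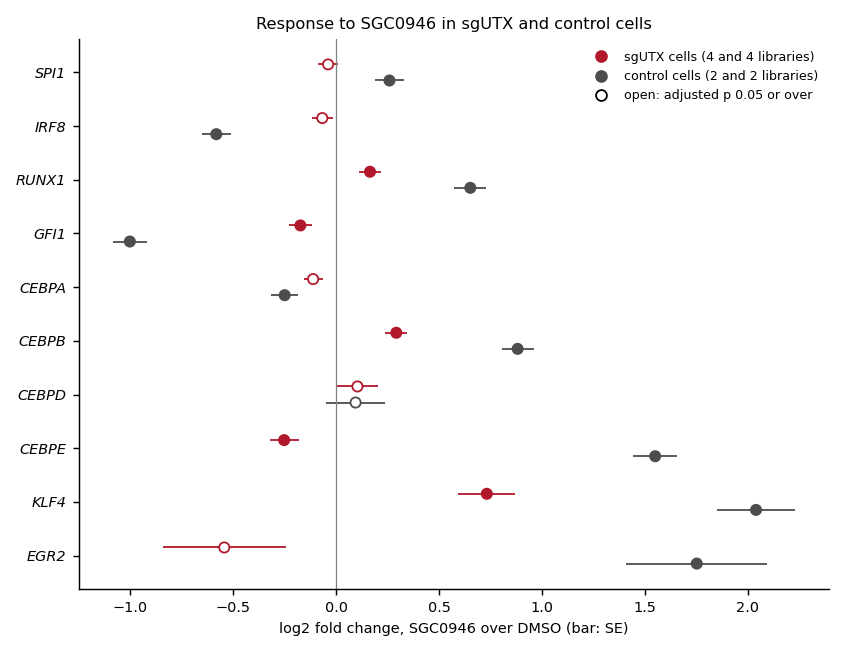
Log2 fold change with SGC0946 over DMSO for each gene in sgUTX cells (4 and 4 libraries) and in control cells (2 and 2 libraries); bars are standard errors, and open points had an edgeR adjusted p of 0.05 or over. The values of sgUTX cells lie between -0.54 and 0.73, and those of control cells between -1.0 and 2.04.

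SPI1 (ENSG00000066336, chr11:47354860-47378576, minus strand; all gene positions are those of GENCODE 29 on GRCh38) encodes the ETS factor PU.1, required for the myeloid lineage. With SGC0946 it stood at 384 and 364 CPM in the sgUTX_4 libraries and 366 and 351 CPM in the sgUTX_2 libraries, against 470.2 and 462 CPM in the control libraries. In DMSO it stood at 361 and 383 CPM with sgUTX_4 and 396 and 365 CPM with sgUTX_2, against 395 and 384 CPM in control libraries. Both control libraries with SGC0946 lay above all other libraries, and the remaining 5 combinations did not differ from their neighbours in the order of levels by more than the summed SDs. SPI1 rose with SGC0946 in control cells by 0.26 on the log2 scale (SE 0.07, edgeR adjusted p = 0.00311), and in sgUTX cells the log2 fold change was -0.04 (SE 0.05, adjusted p = 0.583). The responses differed by -0.30 (SE 0.08, edgeR adjusted p = 0.00768). The libraries of the genotypes stood apart with SGC0946 and overlapped in DMSO. SPI1 was lower in sgUTX than in control cells with SGC0946 (log2 fold change -0.35, SE 0.06, edgeR adjusted p = 2.15e-05; -0.16 with library size alone, adjusted p = 0.0166, the highest over all alternatives, with a lowest of 6.92e-10). In DMSO the log2 fold change was -0.05 (edgeR adjusted p = 0.474). That last sign depended on the scaling: with library size alone it was 0.22 and called (edgeR adjusted p = 0.00199; 0.00199 to 0.867 over all alternatives), where the median of all genes moved to 0.26.

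IRF8 (ENSG00000140968, chr16:85898803-85922609, plus strand) is an interferon regulatory factor that partners with PU.1 and favours monocytes and dendritic cells over granulocytes. In DMSO it had 249 and 222 CPM in the sgUTX_4 libraries and 235 and 216 CPM in the sgUTX_2 libraries, against 390.2 and 385 CPM in the control libraries. With SGC0946 it had 214 and 217 CPM with sgUTX_4 and 218 and 231 CPM with sgUTX_2, against 263 and 255 CPM in control libraries. The control DMSO libraries were far above the other 10, and within sgUTX cells the treatments overlapped. IRF8 was lower in sgUTX than in control cells by a log2 fold change of -0.75 in DMSO (SE 0.06, edgeR adjusted p = 3.18e-10) and -0.24 with SGC0946 (SE 0.06, adjusted p = 0.00238). With library size alone the DMSO value was -0.48 and still called, and the second value was -0.05 and not called (edgeR adjusted p = 0.475; 0.000123 to 0.475 over all alternatives). SGC0946 lowered IRF8 in control cells by a log2 fold change of -0.58 (SE 0.07, edgeR adjusted p = 5.19e-07), against -0.07 in sgUTX cells (SE 0.05, adjusted p = 0.340), and the responses differed by 0.52 (adjusted p = 8.47e-05). Over the 12 libraries, the genes most like IRF8 in log2 CPM were RPLP2 (Pearson r = 0.996) and RPS25 (r = 0.988), both ribosomal protein genes, and the ribosomal share of counts was highest in the same control DMSO libraries; its part in the IRF8 values was not tested.

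RUNX1 (ENSG00000159216, chr21:34787801-36004667, minus strand) is the DNA-binding subunit of core binding factor. In DMSO it stood at 191 and 192 CPM with sgUTX_4 and 181 and 179.6 CPM with sgUTX_2, against 128 and 116 CPM in control cells. With SGC0946 the levels were 214 and 226 CPM with sgUTX_4 and 199.7 and 193 CPM with sgUTX_2, against 191 and 192 CPM in control cells. The control DMSO libraries were the lowest of the 12 and the sgUTX_4 libraries with SGC0946 the highest; the control libraries with SGC0946 lay at the level of sgUTX_4 libraries in DMSO. RUNX1 rose with SGC0946 in control cells (log2 fold change 0.65, SE 0.08, edgeR adjusted p = 2.82e-07) and in sgUTX cells (0.16, SE 0.05, adjusted p = 0.0198), and the responses differed by -0.49 (adjusted p = 0.0003). The call in sgUTX cells was lost without replicate 1 of sgUTX_2 in DMSO (edgeR adjusted p = 0.0526) or replicate 2 of sgUTX_4 with SGC0946 (adjusted p = 0.102; 0.00226 to 0.102 over all alternatives). In DMSO, RUNX1 was higher in sgUTX than in control cells by a log2 fold change of 0.61 (SE 0.07, edgeR adjusted p = 6.65e-08); with SGC0946 the value was 0.12 (SE 0.07, adjusted p = 0.124), and with library size alone 0.31, which was called (adjusted p = 0.000602; 0.000602 to 0.326 over all alternatives).

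GFI1 (ENSG00000162676, chr1:92474762-92486876, minus strand) is a zinc finger repressor that favours granulocytes and antagonises monocyte factors. With SGC0946 it stood at 178 and 192 CPM in the sgUTX_4 libraries and 165 and 176 CPM in the sgUTX_2 libraries, against 83.0 and 75.2 CPM in the control libraries. In DMSO the levels were 209 and 210.3 CPM with sgUTX_4 and 192 and 191 CPM with sgUTX_2, against 165 and 151 CPM in control cells. Control cells thus held the 2 lowest places in the order of levels, with the SGC0946 group far below every other. GFI1 fell with SGC0946 in control cells by a log2 fold change of -1.0 (SE 0.08, edgeR adjusted p = 8.69e-10) and in sgUTX cells by -0.17 (SE 0.06, adjusted p = 0.0182), a difference of 0.83 between the responses (SE 0.10, adjusted p = 9.40e-07). The call in sgUTX cells was lost without replicate 2 of sgUTX_4 in DMSO (edgeR adjusted p = 0.0688) or replicate 1 of sgUTX_2 with SGC0946 (adjusted p = 0.0688; 0.00215 to 0.0688 over all alternatives). GFI1 was higher in sgUTX than in control cells by 1.17 with SGC0946 (SE 0.07, edgeR adjusted p = 5.10e-12) and by 0.34 in DMSO (SE 0.07, adjusted p = 0.000205); the second value was 0.61 with library size alone.

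RefSeq lists 250 bases before annotated starts on GRCh38.p14, and 8 of the 10 genes had such a window, 14 windows in all, with SPI1 and CEBPD unmatched. A gene can have several starts, and 12 of the 14 lie downstream of the outermost start that GENCODE 29 gives the gene, so their windows can lie within the gene; the starts used here are 777 bases downstream of it for GFI1, 361 for CEBPE, 713 for KLF4 and 103534 for EGR2. The GFI1, KLF4 and EGR2 windows printed here hold no exon of their gene in GENCODE 29, while the CEBPE stretch lies in an exon. One GFI1 window is shown because it holds motifs of 2 families described here. At chr1:92486100-92486349 on the minus strand, the capitals mark the C/EBP motif (TTGCNNAA) at -142 to -135 and the RUNX motif (TGTGGT) at -47 to -42, counted from that start at 0.
GFI1: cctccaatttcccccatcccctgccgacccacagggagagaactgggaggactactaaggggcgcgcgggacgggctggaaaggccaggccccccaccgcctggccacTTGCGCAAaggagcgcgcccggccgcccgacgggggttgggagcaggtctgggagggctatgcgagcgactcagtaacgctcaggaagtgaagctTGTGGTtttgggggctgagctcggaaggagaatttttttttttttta
Searched on both strands, the C/EBP motif occurred in 10.5% and the RUNX motif in 13.1% of all 35116 RefSeq windows, which run from 250 bases before to 50 bases after a start. A match describes the letters only.

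The C/EBP family of leucine zipper factors split into members that rose, fell or did not pass the test. CEBPA (ENSG00000245848, chr19:33299934-33302564, minus strand) is required for the step from common myeloid to granulocyte and monocyte progenitors. With SGC0946 it had 293 and 280.2 CPM in the sgUTX_4 libraries and 295 and 298 CPM in the sgUTX_2 libraries, against 216 and 226 CPM in the control libraries. In DMSO it had 306 and 319 CPM with sgUTX_4 and 331 and 305 CPM with sgUTX_2, against 263 and 263 CPM in control cells. Every sgUTX library lay above every control library. CEBPA was higher in sgUTX than in control cells by a log2 fold change of 0.40 with SGC0946 (SE 0.06, edgeR adjusted p = 3.65e-06) and 0.26 in DMSO (SE 0.06, adjusted p = 0.000455), and the DMSO value was 0.54 with library size alone. CEBPA fell with SGC0946 in control cells (log2 fold change -0.25, SE 0.07, edgeR adjusted p = 0.00343), a call lost without replicate 1 of sgLuc with SGC0946 (adjusted p = 0.0584; 0.0007 to 0.0584 over all alternatives). This value was -0.16 with library size alone, still called. In both genotypes the SGC0946 libraries lay below the DMSO libraries. In sgUTX cells the value was -0.11 (SE 0.05, edgeR adjusted p = 0.0686), and the difference of the responses was 0.14 (SE 0.08, adjusted p = 0.204). On the opposite strand, 2 clone-named genes cover 43.4% of the CEBPA exon and had no count in any library. Without a stated counting program and strand, it cannot be told whether reads over that part were kept for CEBPA.

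CEBPD (ENSG00000221869, chr8:47736909-47739086, minus strand) is an acute-phase and inflammatory C/EBP factor of macrophages. With SGC0946 it had 359 and 329 CPM in the sgUTX_4 libraries and 265 and 279.5 CPM in the sgUTX_2 libraries, against 407 and 435 CPM in the control libraries. In DMSO it had 319 and 303 CPM with sgUTX_4 and 279 and 246 CPM with sgUTX_2, against 411 and 377 CPM in control cells. The order of levels followed the guide (sgLuc, then sgUTX_4, then sgUTX_2), and the treatments overlapped in control and in sgUTX_2 cells. CEBPD was lower in sgUTX than in control cells by a log2 fold change of -0.45 with SGC0946 (SE 0.12, edgeR adjusted p = 0.00653) and -0.46 in DMSO (SE 0.12, adjusted p = 0.00537). The first call was lost without replicate 2 of sgLuc with SGC0946 (edgeR adjusted p = 0.0612) and the second without replicate 1 of sgLuc in DMSO (adjusted p = 0.0626), and with library size alone the values were -0.27 and -0.19, neither of them called (adjusted p = 0.071 and 0.19, the highest over all alternatives, with lowest values of 1.23e-08 and 9.42e-09). Its response to SGC0946 did not pass the test in sgUTX cells (0.10, SE 0.10, edgeR adjusted p = 0.478) or in control cells (0.09, SE 0.14, adjusted p = 0.615).

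CEBPB (ENSG00000172216, chr20:50190734-50192689, plus strand) drives emergency granulocyte production and macrophage genes. With SGC0946 it stood at 165 and 187 CPM with sgUTX_4 and 177 and 189 CPM with sgUTX_2, against 250.3 and 259.9 CPM in control cells. In DMSO it stood at 144 and 158 CPM with sgUTX_4 and 147 and 137 CPM with sgUTX_2, against 139.95 and 137 CPM in control cells. The treatments stood apart in both genotypes, the control SGC0946 libraries were the highest of all, and in DMSO the genotypes overlapped. CEBPB rose with SGC0946 by a log2 fold change of 0.29 in sgUTX cells (SE 0.05, edgeR adjusted p = 0.00018) and 0.88 in control cells (SE 0.08, adjusted p = 2.78e-09), a difference of -0.59 (SE 0.09, adjusted p = 3.82e-05). It was lower in sgUTX than in control cells with SGC0946 (log2 fold change -0.51, SE 0.07, edgeR adjusted p = 5.76e-07), and the value was -0.32 with library size alone, still called. In DMSO the value was 0.08 (SE 0.07, edgeR adjusted p = 0.287), and with library size alone it was 0.36 and called (adjusted p = 8.66e-05; 8.66e-05 to 0.583 over all alternatives). The antisense gene CEBPB-AS1 shares 11.8% of the CEBPB exon, had at most 18 counts in a library, and without a stated strand its reads cannot be told apart from those of CEBPB.

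CEBPE (ENSG00000092067, chr14:23117304-23119616, minus strand) is needed for the late maturation of granulocytes. In DMSO it had 98.3 and 102 CPM in the sgUTX_4 libraries and 108 and 99.2 CPM in the sgUTX_2 libraries, against 40.8 and 36.3 CPM in the control libraries. With SGC0946 it had 94.8 and 95.1 CPM with sgUTX_4 and 75.2 and 77.2 CPM with sgUTX_2, against 116 and 110.4 CPM in control cells. The control DMSO libraries were the lowest of the 12 and the control SGC0946 libraries the highest, with all sgUTX libraries between them. CEBPE was higher in sgUTX than in control cells in DMSO by 1.40 on the log2 scale (SE 0.10, edgeR adjusted p = 1.44e-10) and lower with SGC0946 (log2 fold change -0.40, SE 0.09, edgeR adjusted p = 0.000451). The second value was -0.22 with library size alone (edgeR adjusted p = 0.0346; 2.03e-07 to 0.0346 over all alternatives). It rose with SGC0946 in control cells (1.55, SE 0.11, edgeR adjusted p = 3.17e-10) and fell in sgUTX cells (-0.25, SE 0.07, adjusted p = 0.00876). The difference of these responses was -1.80 (SE 0.13, edgeR adjusted p = 2.41e-09). The fall in sgUTX cells was mostly that of sgUTX_2, whose mean went from 103.5 CPM in DMSO to 76.2 CPM with SGC0946. With sgUTX_4 the mean went from 100.2 to 94.9 CPM (n = 2 in each), and the response of each guide was not tested. A short stretch of the CEBPE window is shown because it holds a motif of PU.1, the product of SPI1; it lies at chr14:23119280-23119306 on the minus strand (GRCh38.p14, RefSeq), and the capitals mark GAGGAAG at -41 to -35.
CEBPE: attgactacaGAGGAAGgaaaaggaag
This PU.1 motif occurred on either strand in 13.6% of all RefSeq windows.

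Within each library the 4 C/EBP genes were also set against each other as shares of their summed CPM per kb. CEBPE made up 12.8% to 14.8% of the sum in sgUTX libraries and 15.8% and 14.5% in control libraries with SGC0946. In DMSO its share was 15.8% to 17.6% in sgUTX libraries and 6.80% and 6.37% in control libraries. CEBPA held 25.7% to 30.04% in sgUTX libraries and 17.4% and 17.6% in control libraries with SGC0946, while CEBPB held 19.98% to 24.9% and 27.1% in each. These shares do not depend on the scaling between libraries. They rest on the full exon length of CEBPA, whose share is too low if reads over the part covered by antisense genes were not kept. The ratio of CEBPE to CEBPA counts was 0.255 to 0.339 in sgUTX libraries and 0.536 and 0.488 in control libraries with SGC0946, and 0.320 to 0.326 in sgUTX libraries and 0.155 and 0.138 in control libraries with DMSO.

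**Figure D3:**
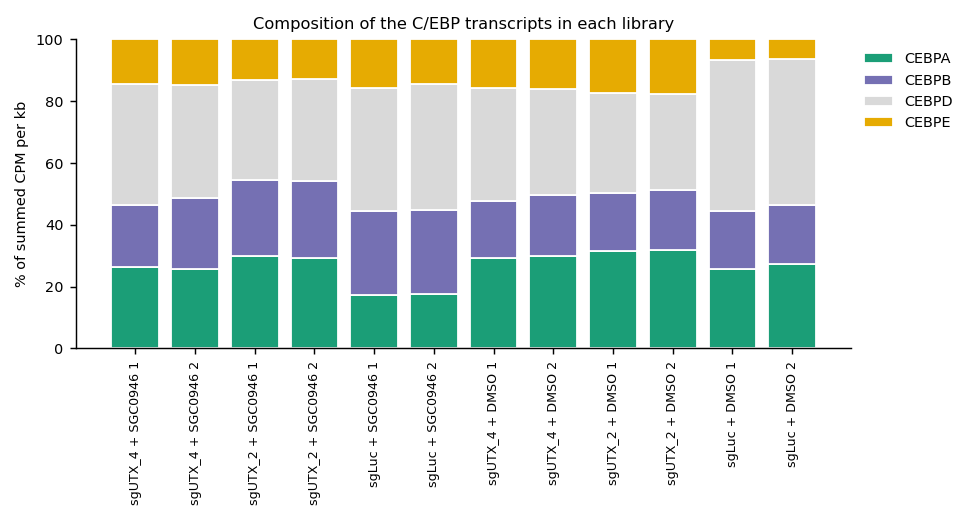
Share (percent, stacked from 0 to 100) of CEBPA, CEBPB, CEBPD and CEBPE in their summed CPM per kb of exon, 1 bar for each of the 12 libraries. The CEBPE share is 6.80% and 6.37% in the control DMSO libraries and at least 12.8% in the other 10.

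KLF4 and EGR2, the zinc finger factors of monocyte and macrophage fate, had the lowest levels per kb and the largest fold changes of the 10 with SGC0946 in control cells. KLF4 (ENSG00000136826, chr9:107484852-107490482, minus strand) acts downstream of PU.1 in monocytes. With SGC0946 it had 6.63 and 7.36 CPM in the sgUTX_4 libraries and 5.79 and 6.24 CPM in the sgUTX_2 libraries, against 18.2 and 16.4 CPM in the control libraries. In DMSO it had 4.74 and 3.998 CPM with sgUTX_4 and 3.68 and 3.29 CPM with sgUTX_2, against 4.42 and 3.94 CPM in control cells. The genotypes overlapped in DMSO and stood apart with SGC0946, where both groups lay above their DMSO libraries. KLF4 rose with SGC0946 by 0.73 in sgUTX cells (SE 0.14, edgeR adjusted p = 0.00022) and 2.04 in control cells (SE 0.19, adjusted p = 8.11e-09) on the log2 scale, a difference of -1.31 (SE 0.24, adjusted p = 0.000166). It was lower in sgUTX than in control cells with SGC0946 (log2 fold change -1.41, SE 0.14, edgeR adjusted p = 1.86e-08), and in DMSO the value was -0.10 (SE 0.19, adjusted p = 0.658), with the opposite sign (0.17) under library size alone.

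EGR2 (ENSG00000122877, chr10:62811996-62919900, minus strand), an early growth response factor of macrophages, was close to the lower limit of these libraries. With SGC0946 it had 11 and 19 counts in the sgUTX_4 libraries and 28 and 19 counts in the sgUTX_2 libraries, against 107 and 144 counts in the control libraries. In DMSO it had 30 and 24 counts with sgUTX_4 and 26 and 26 counts with sgUTX_2, against 49 and 15 counts in control cells. The control SGC0946 libraries stood above all others, the control DMSO libraries differed more from each other than the genotype means did, and the other 5 combinations did not differ from their neighbours in the order of levels by more than the summed SDs. EGR2 rose with SGC0946 in control cells (log2 fold change 1.75, SE 0.34, edgeR adjusted p = 0.000189), against -0.54 in sgUTX cells (SE 0.30, adjusted p = 0.175), and the responses differed by -2.30 (SE 0.45, adjusted p = 0.000409). Without replicate 1 of sgLuc in DMSO, the rise in control cells was 2.66 and the difference -3.21, both still called. With SGC0946 no sgUTX library came near the control libraries. EGR2 was lower in sgUTX than in control cells with SGC0946 (log2 fold change -2.98, SE 0.29, edgeR adjusted p = 1.02e-08). In DMSO the value was -0.68 (SE 0.34, edgeR adjusted p = 0.0872), and it rested on the control libraries, being 0.23 without replicate 1 of sgLuc in DMSO (adjusted p = 0.698) and -1.19 without replicate 2 (adjusted p = 0.00633); these are also the highest and lowest adjusted p over all alternatives.

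Because KLF4 and EGR2 rose together in control cells, 1 RefSeq window of each is printed (GRCh38.p14, minus strand). The KLF4 window lies at chr9:107489770-107490019, and its capitals mark the EGR motif (GCGNGGGCG, here as its reverse complement) at -189 to -181 and the GFI1 motif (AAATCA, here as its reverse complement) at -139 to -134. The EGR2 window lies at chr10:62816367-62816616, and its capitals mark the GFI1 motif at -122 to -117 and a CArG box, the site of serum response factor, at -71 to -62. EGR2 has other RefSeq windows, and none of those held a GFI1 motif or a CArG box.
KLF4: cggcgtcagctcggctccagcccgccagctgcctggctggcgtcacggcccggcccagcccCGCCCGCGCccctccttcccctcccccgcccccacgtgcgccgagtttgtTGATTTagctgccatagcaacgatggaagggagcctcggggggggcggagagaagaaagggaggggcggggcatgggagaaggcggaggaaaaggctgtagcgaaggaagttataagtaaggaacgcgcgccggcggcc
EGR2: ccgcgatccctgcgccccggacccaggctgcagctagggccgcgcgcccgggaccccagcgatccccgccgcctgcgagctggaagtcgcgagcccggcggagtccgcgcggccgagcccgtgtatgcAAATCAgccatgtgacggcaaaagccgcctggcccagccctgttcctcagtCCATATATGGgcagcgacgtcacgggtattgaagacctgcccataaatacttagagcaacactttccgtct
On either strand, the EGR motif occurred in 9.43%, the GFI1 motif in 13.2% and the CArG box in 1.29% of all RefSeq windows. Also searched were the KLF motif (GGGTGTGG, 3.28% of windows) and an ETS-IRF composite motif (2.82%), which matched none of the 14 windows of these genes.

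The ratio of GFI1 to KLF4 counts within a library sets the granulocyte repressor against a monocyte factor. With SGC0946 it was 26.0 to 28.6 in sgUTX libraries and 4.57 and 4.60 in control libraries. In DMSO it was 44.1 to 58.1 in sgUTX libraries and 37.4 and 38.4 in control libraries. For this ratio the genotypes did not overlap in either treatment, and it was lower with SGC0946 in both. The ratio of GFI1 to EGR2 counts, which rests on few EGR2 counts, did not share that pattern. With SGC0946 it was 132.6 to 285.3 in sgUTX libraries and 12.9 and 9.42 in control libraries. In DMSO it was 126.3 to 167.5 in sgUTX libraries and 54.2 and 133.3 in control libraries. The genotypes thus overlapped in DMSO, and the treatments overlapped in sgUTX cells.

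**Figure D4:**
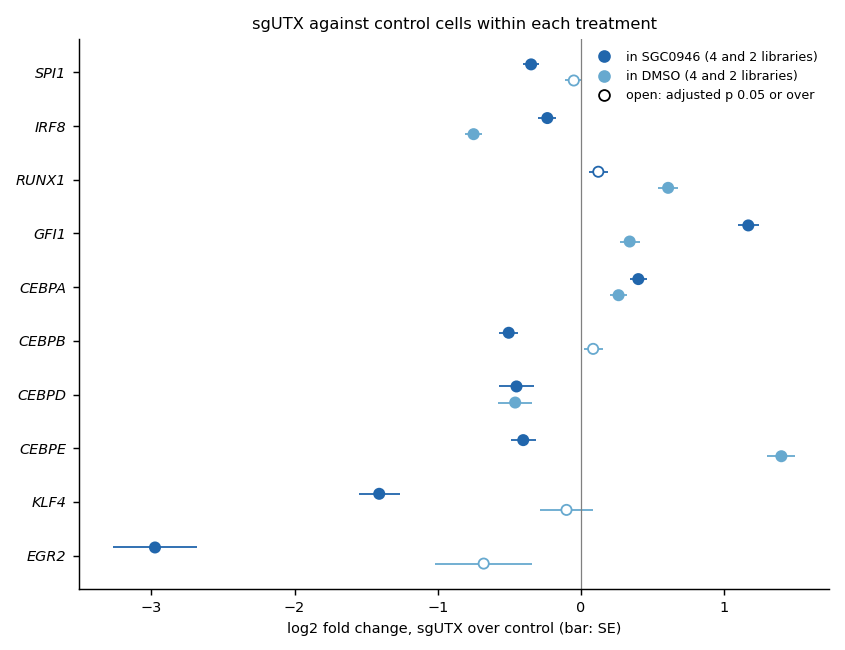
Log2 fold change of sgUTX over control cells for each gene with SGC0946 and with DMSO (4 and 2 libraries in each); bars are standard errors, and open points had an edgeR adjusted p of 0.05 or over. CEBPE lies at -0.40 with SGC0946 and at 1.40 in DMSO, and EGR2 and KLF4 are the lowest with SGC0946, at -2.98 and -1.41.

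Both guides were fitted separately to see whether 1 of them carried these values. Against control cells with SGC0946, sgUTX_4 had all 10 genes called and sgUTX_2 had 9 (56.3% and 56.4% of all genes); in DMSO each had 6 called (59.7% and 60.4%). With library size alone, sgUTX_2 again had 9 called with SGC0946 and sgUTX_4 had 7. Under that scaling 39.5% of all genes were higher and 21.5% lower with sgUTX_2, and 38.6% and 21.3% with sgUTX_4. The calls lost with sgUTX_4 were those of IRF8 (-0.27 with TMM and -0.084 with library size alone, edgeR adjusted p = 0.227), CEBPD (-0.29 and -0.11, adjusted p = 0.132) and CEBPE (-0.25 and -0.071, adjusted p = 0.388), and each of these p is the highest over that gene's alternatives; the lowest were 8.15e-05, 2.28e-05 and 0.000766. GFI1 with SGC0946 was 1.23 for sgUTX_4 (SE 0.07, edgeR adjusted p = 2.64e-17) and 1.11 for sgUTX_2 (SE 0.07, adjusted p = 3.40e-16) on the log2 scale. These values rest on the same control libraries. CEBPE in DMSO was 1.37 for sgUTX_4 (SE 0.07, edgeR adjusted p = 2.67e-17) and 1.42 for sgUTX_2 (SE 0.07, adjusted p = 9.12e-18). RUNX1 with SGC0946 was called for sgUTX_4 (0.20, edgeR adjusted p = 0.00538), and not for sgUTX_2 (0.04, adjusted p = 0.618). The sgUTX_4 call was lost without its replicate 2 (edgeR adjusted p = 0.0775), and the value was 0.38 with library size alone (adjusted p = 4.91e-06); these are the highest and lowest p over all alternatives. Between the guides themselves, CEBPD was higher with sgUTX_4 than with sgUTX_2 by 0.34 with SGC0946 (SE 0.07, edgeR adjusted p = 0.00259) and by 0.24 in DMSO (SE 0.07, adjusted p = 0.034), and CEBPE was higher by 0.32 with SGC0946 (SE 0.07, adjusted p = 0.00582). That made 2 of the 10 genes called with SGC0946 (3.01% of all genes) and 1 in DMSO (3.49%). Some of the calls between the guides were lost when 1 library was left out. The log2 fold changes stayed of similar size with SGC0946, while that of CEBPD in DMSO fell from 0.24 to 0.15 without replicate 2 of sgUTX_2. Without replicate 1 of sgUTX_2 with SGC0946, CEBPD was at 0.299 (edgeR adjusted p = 0.0856) and CEBPE at 0.298 (adjusted p = 0.104). Without replicate 1 of sgUTX_4 with SGC0946, CEBPD was at 0.273 (edgeR adjusted p = 0.157) and CEBPE at 0.319 (adjusted p = 0.0801), and over all alternatives the adjusted p was 1.37e-05 to 0.157 for CEBPD and 0.00173 to 0.104 for CEBPE. The DMSO call of CEBPD was lost without replicate 2 of sgUTX_2 (0.15, edgeR adjusted p = 0.342) or replicate 1 of sgUTX_4 in DMSO (0.20, adjusted p = 0.452), or either sgLuc library with SGC0946 (0.24 in each, adjusted p = 0.0645 and 0.0646; 0.00677 to 0.452 over all alternatives).

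Partners and paralogs of these factors, a list of 35 genes with 32 tested, moved in both directions. With SGC0946, 8 rose and 16 fell in sgUTX cells (median log2 fold change -0.13), against 13 and 5 in control cells (0.28); the median of all genes was 0.00 in each. Of all genes, 17.4% rose and 16.4% fell in sgUTX cells, and 24.7% rose and 24.2% fell in control cells. Compared with control cells, 6 of the 32 were higher and 20 lower in sgUTX cells with SGC0946, where 27.7% of all genes were higher and 29.3% lower. EGR3, among the 32, passed the filter through control libraries alone and could only come out lower. It had 10 and 20 counts in control libraries with SGC0946 and at most 5 in an sgUTX library. In DMSO 11 were higher and 15 lower (28.7% and 32.3% of all genes), and with library size alone 15 were higher and 10 lower (43.5% and 21.7% of all genes). JUN, a leucine zipper factor that can pair with C/EBP proteins, had a log2 fold change of -3.36 in sgUTX over control cells with SGC0946 (SE 0.14, edgeR adjusted p = 5.93e-14), and KLF2, a relative of KLF4, -3.77 (SE 0.22, adjusted p = 1.61e-12). Other paralogs stood apart in DMSO or fell with SGC0946. EGR1, the paralog of EGR2, had 50.5 and 46.1 CPM with sgUTX_4 and 37.7 and 37.0 CPM with sgUTX_2, against 6.41 and 6.36 CPM in control cells, all in DMSO (log2 fold change 2.74, SE 0.16, edgeR adjusted p = 2.11e-12). IRF5, a paralog of IRF8, was lower in sgUTX cells in DMSO by -3.74 (SE 0.10, edgeR adjusted p = 3.61e-18). RUNX2, a paralog of RUNX1, fell with SGC0946 in sgUTX cells (-1.18, SE 0.07, edgeR adjusted p = 1.80e-11) and in control cells (-2.97, SE 0.12, adjusted p = 3.36e-15).

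Monocyte targets, a list of 30 genes with 25 tested, were lower in sgUTX than in control cells for all 25 with SGC0946 (median log2 fold change -2.15). Of all genes, 29.3% were lower there. With library size alone the SGC0946 count was 23, where 21.4% of all genes were lower. The count of 25 and the median include genes that passed the filter through control libraries alone and so could only come out lower. CD163 had 20 and 19 counts in the control libraries with SGC0946 and at most 4 in an sgUTX library. MSR1 had 10 and 12 counts there and at most 3 in an sgUTX library. In DMSO 14 of the 25 were lower and 2 higher in sgUTX cells (median -0.80), where 32.3% of all genes were lower and 28.7% higher; CYBB, the phagocyte oxidase gene, was among those higher (1.24, SE 0.08, edgeR adjusted p = 3.42e-12). With SGC0946, 16 rose and 2 fell in sgUTX cells (median 0.97), against 22 and 1 in control cells (1.99). Of all genes, 17.4% rose and 16.4% fell in sgUTX cells, and 24.7% rose and 24.2% fell in control cells. CD14, the monocyte lipopolysaccharide co-receptor, had 19.5 and 20.3 CPM with sgUTX_4 and 14.1 and 13.1 CPM with sgUTX_2, against 546 and 566 CPM in control cells, all with SGC0946. CD14 rose with SGC0946 by 2.90 in sgUTX cells (SE 0.18, edgeR adjusted p = 6.07e-08) and 6.01 in control cells (SE 0.19, adjusted p = 7.63e-11) on the log2 scale.

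Of 25 granulocyte targets 24 were tested. With SGC0946, 16 rose and none fell in sgUTX cells (median 1.54), and 16 rose and 2 fell in control cells (2.96). Of all genes, 17.4% rose and 16.4% fell in sgUTX cells, and 24.7% rose and 24.2% fell in control cells. Compared with control cells, 3 were higher and 12 lower in sgUTX cells with SGC0946 (27.7% and 29.3% of all genes). ELANE, the neutrophil elastase gene, was among those higher (2.28, SE 0.39, edgeR adjusted p = 0.00108), and FPR1, the formyl peptide receptor of mature neutrophils and monocytes, among those lower (-5.05, SE 0.16, adjusted p = 4.50e-13). In DMSO 2 were higher and 7 lower in sgUTX cells (28.7% and 32.3% of all genes). A fit that averaged the guides called 23 of the 24 with SGC0946, 7 higher and 16 lower (29.3% and 31.3% of all genes in that fit), and 16 in DMSO, 6 higher and 10 lower (30.01% and 34.1%). The guides differed in this list, and their difference enters the error of the fit that takes them as replicates: sgUTX_4 was higher than sgUTX_2 for 13 of the 24 with SGC0946 and for 13 in DMSO, with none lower, where 1.61% and 1.72% of all genes were higher. Both counts were lower without replicate 1 of sgUTX_4 in that treatment, and the DMSO count also without replicate 2 of sgUTX_2. The share of all genes called fell as well in those fits, each of which left a guide and treatment with 1 library. PGLYRP1, a neutrophil granule protein, had 7.25 and 4.70 CPM with sgUTX_4 and 1.43 and 1.31 CPM with sgUTX_2 in SGC0946 (log2 fold change 2.12, SE 0.29, edgeR adjusted p = 1.58e-05). DEFA4, a defensin of granule stores, had 69.1 and 48.8 CPM with sgUTX_4 and 17.5 and 11.5 CPM with sgUTX_2 in DMSO (2.03, SE 0.28, edgeR adjusted p = 0.0173).

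**Figure D5:**
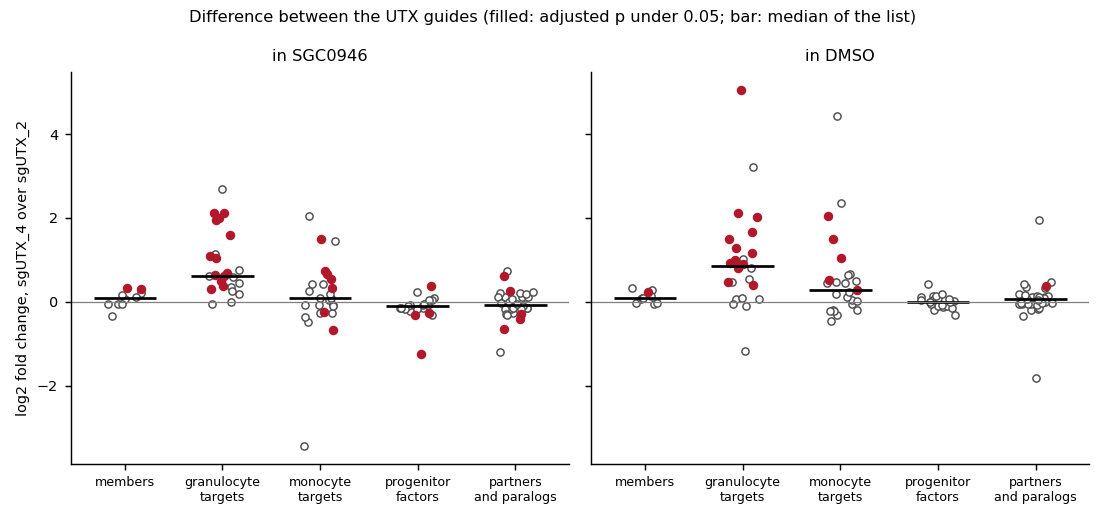
Log2 fold change of sgUTX_4 over sgUTX_2 with SGC0946 and with DMSO for the 10 factors and 4 gene lists; a point is a gene, filled where the edgeR adjusted p was under 0.05, and a bar is the list's median. The medians of the granulocyte targets are 0.63 with SGC0946 and 0.86 with DMSO, and genes near the counting limit give the most extreme points.

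Progenitor factors, a list of 26 genes with 21 tested, fell with SGC0946 for 14 in sgUTX cells with none higher (median log2 fold change -0.37). In control cells 16 fell and 1 was higher (-1.16). Of all genes, 16.4% fell and 17.4% rose in sgUTX cells, and 24.2% fell and 24.7% rose in control cells. In sgUTX over control cells, 11 of the 21 were higher and 6 lower with SGC0946 (27.7% and 29.3% of all genes). In DMSO 5 were higher and 9 lower (28.7% and 32.3% of all genes), and with library size alone 10 were higher and 6 lower (43.5% and 21.7%). MEIS1, a homeobox factor of leukemic stem cells, had 5.10 and 4.29 CPM with sgUTX_4 and 4.72 and 5.71 CPM with sgUTX_2, against 1.87 and 0.776 CPM in control cells, all with SGC0946. MEIS1 fell with SGC0946 by a log2 fold change of -2.16 in sgUTX cells (SE 0.14, edgeR adjusted p = 6.35e-10) and -4.93 in control cells (SE 0.25, adjusted p = 9.50e-12). MYB, a factor of immature myeloid cells, was higher in sgUTX than in control cells with SGC0946 (0.90, SE 0.08, edgeR adjusted p = 2.88e-09).

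For each factor whose responses differed, the genes most alike over the 12 libraries in log2 CPM were found by Pearson's r among 12756 genes; the libraries share groups, so r is a description. KLF4 was most like CLEC5A, a myeloid surface lectin (r = 0.996), and GFI1 most like KANK1 (r = 0.989). RUNX1 was most like SPAG1 (r = 0.986), CEBPE most like UHMK1 (r = 0.985) and CEBPB most like ACAP2 (r = 0.984), with the formyl peptide receptor FPR2 next for CEBPB (r = 0.977). SPI1 was most like PELI2 (r = 0.977). EGR2 was most like ACVR1B, an activin receptor (r = 0.967), then PTPRE (r = 0.962) and IER3 (r = 0.954).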

How the data were processed

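The files held raw read counts per gene for 12 libraries, deposited by the authors without normalization; per the labels' protocols, total RNA gave paired reads of 150 bases. The aligner STAR 2.5.1b and build hg19 are named, per the submitters' processing notes, yet the 58735 identifiers are exactly the set of GENCODE 29, which annotates GRCh38, and the build behind the counts is therefore uncertain. For the counting program and its strand setting, the sources used here give nothing.

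Counts were fitted with edgeR 4.0.16 under R 4.3.3 (TMM factors, the filterByExpr filter and two-sided F-tests from a robust quasi-likelihood fit) over all 12 libraries in 4 groups, with 8 residual degrees of freedom and both guides as replicates of sgUTX. A fit of 6 groups, with 6 residual degrees of freedom, served single guides. P-values were adjusted over 15060 genes by Benjamini-Hochberg, and genes under 0.05 are called. The SE is the log2 fold change divided by the root of F. No 2 libraries of a group were identical or within sampling noise (chi-square per gene 2.85 to 6.29). In simulated counts with 200 genes changed 2-fold, the fits recovered 87.5% to 98.5% of them, depending on the comparison. So few changed genes cannot decide between TMM and library size alone in data with changes as widespread as these.

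The members and lists were chosen with earlier results of these data known. The text names list genes among the 3 largest called changes each way, with at least 10 counts in the higher group, a part of them chosen after their values were seen. Alternatives were RLE size factors, library size alone, a looser and a stricter filter, DESeq2 1.42.0, a replicate block, averaged guides and leaving out each library. Promoter windows are RefSeq's. Of the 18 markers of other lineages, 1 is not reported on its own here.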

Additional observations from a re-analysis of the deposited data

Results flagged for a closer look

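For 8 of the 10 factors the responses to SGC0946 differed between sgUTX and control cells by the interaction test, which is what marks them here; each value is the log2 response in sgUTX cells minus that in control cells. The value was positive for GFI1 (0.83) and IRF8 (0.52), both of which fell in control cells and changed less in sgUTX cells. It was negative for SPI1 (-0.30), RUNX1 (-0.49), CEBPB (-0.59), KLF4 (-1.31), CEBPE (-1.80) and EGR2 (-2.30). CEBPE alone was called in opposite directions, at -0.25 in sgUTX cells and 1.55 in control cells. Its mean went from 103.5 CPM in DMSO to 76.2 CPM with SGC0946 in sgUTX_2 cells. In sgUTX_4 cells it went only from 100.2 to 94.9 CPM, and the guides' responses were not tested separately. In groups of 4 sgUTX libraries, none of 20 checks for a library far from the other 3 was positive.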

How the results depend on the processing

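Every factor's value that changed sign under an alternative had an adjusted p of 0.05 or over in the fits reported. With library size alone, the median of all genes in sgUTX over control cells was 0.20 with SGC0946 and 0.26 in DMSO, against 0.01 and -0.01 with TMM, and 65.0% and 66.7% of the calls were higher, against 48.6% and 47.1%. The share was 60.9% against 50.6% for SGC0946 in control cells and 40.6% against 52.6% for the difference of responses. In DMSO this scaling gave SPI1 0.22 for both guides, 0.21 for sgUTX_4 and 0.24 for sgUTX_2, all called, and KLF4 0.17 for both and 0.00035 for sgUTX_2. Without a filter SPI1 was at 0.026, 0.0069 and 0.044. The CEBPD difference was -0.020 with RLE factors, -0.079 with library size, -0.050 without a filter and -0.020 with DESeq2.

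Leaving out 1 library at a time, log2 fold changes ranged as follows where the sign changed. In DMSO over control, EGR2 ranged over -1.19 to 0.23 for both guides, -1.05 to 0.38 for sgUTX_4 and -1.33 to 0.090 for sgUTX_2, KLF4 over -0.068 to 0.18 for sgUTX_4, and SPI1 over -0.0923 to 0.0285 and CEBPB over -0.010 to 0.094 for sgUTX_2. The CEBPD difference ranged over -0.073 to 0.075. Between the guides in DMSO, SPI1 ranged over -0.0931 to 0.0274, IRF8 over -0.026 to 0.14, CEBPA over -0.0830 to 0.0377 and CEBPE over -0.11 to 0.013. Between them with SGC0946, EGR2 ranged over -0.687 to 0.0429 and CEBPB over -0.15 to 0.030. The share of all genes called also moved in these fits. For sgUTX over control in DMSO it was lower where control DMSO cells were left with 1 library. The counts that follow can therefore not be set against the shares of the main fits. The number of the 10 called was 0 to 2 between the guides with SGC0946 and 0 to 1 in DMSO, 8 to 9 and 5 to 7 for sgUTX over control with SGC0946 and in DMSO, 4 to 5 and 8 to 9 for the response in sgUTX and control cells, and 8 throughout for the difference.

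CEBPA was called in sgUTX cells with SGC0946 by DESeq2 (-0.12) and with averaged guides (-0.11). DESeq2 called 11 granulocyte targets for the difference of responses and averaged guides 16, against 7 of the 24 tested in the main fit. Of all genes, DESeq2 called 16.1% higher and 17.3% lower for this difference. Averaged guides called 21.0% and 18.8%, and the main fit 18.3% and 16.5%. Replicate numbers did not pair the libraries: deviations of same-numbered libraries correlated at -0.204 to 0.106 over 15 pairs of groups. The fit with the replicate block called 9 of the 10 for sgUTX over control with SGC0946 and 6 in DMSO. It called 9 for the response in control cells, 5 in sgUTX cells and 8 for the difference. These counts are as without the block, and no call of a factor changed. Of all genes, the block fit called, in that order, 27.05%, 28.38%, 24.22%, 16.86% and 17.48% higher. It called 28.73%, 31.86%, 23.63%, 15.74% and 15.96% lower. The cause of the changes with DESeq2 and averaged guides was not tested. Depth limited EGR2 most, with 11 to 144 counts per library.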

Other observations

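Annotated neighbours within 100 kb of the 10 factors were examined after the factors, and the genes named here were chosen after their values were seen. In sgUTX over control cells, 13 of the 31 neighbours tested were higher and 6 lower with SGC0946, where 27.7% of all genes were higher and 29.3% lower, and 15 were higher and 7 lower in DMSO, against 28.7% and 32.3% of all genes. CEBPA-DT, a divergent transcript that starts on the opposite strand 293 bases from CEBPA, was lower in sgUTX than in control cells in DMSO (log2 fold change -1.003, SE 0.16, edgeR adjusted p = 7.57e-06), where CEBPA was higher (0.26). With SGC0946 the CEBPA-DT value was -0.13 (SE 0.17, edgeR adjusted p = 0.529). In control cells CEBPA-DT fell with SGC0946 (-1.12, SE 0.19, edgeR adjusted p = 3.55e-05).

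SLC7A8, an amino acid transporter gene 5679 bases from CEBPE, rose with SGC0946 in sgUTX cells (2.60, SE 0.29, edgeR adjusted p = 1.93e-07), where CEBPE fell (-0.25), and in control cells (2.92, SE 0.37, adjusted p = 7.20e-07). SMIM25, a gene 74797 bases from CEBPB, rose with SGC0946 by 2.18 in sgUTX cells (SE 0.29, edgeR adjusted p = 3.62e-06) and 2.63 in control cells (SE 0.26, adjusted p = 2.17e-08). Between genotypes SMIM25 was lower in sgUTX cells in both treatments, at -3.30 with SGC0946 (SE 0.21, edgeR adjusted p = 6.36e-12) and -2.85 in DMSO (SE 0.33, adjusted p = 1.17e-07).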
